A study of Mus musculus with 12 samples.

Results

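The 41 ribosome biogenesis genes described here were chosen by gene symbol from the 53465 genes in the expression table of mouse bone marrow LSKs. The rule used no measured value, but earlier results of these data were known when the genes were chosen. LSKs (Lin- Sca-1+ c-Kit+ cells) are the sorted marrow fraction that holds the hematopoietic stem cells (HSCs) and multipotent progenitors. By role, 9 of the genes encode RNA polymerase I subunits and general nucleolar proteins, 3 the proteins of box C/D snoRNPs, 4 those of box H/ACA snoRNPs, 9 assembly factors of the small ribosomal subunit and 16 assembly factors of the large subunit. All 41 symbols were found in the table, and all 41 genes passed the filter on low counts in every comparison.

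The RNA-seq libraries came from 4 groups with 3 libraries each. The first group was untreated Wild type mice, the Tespa1+/+ littermates, and the second was untreated Tespa1-/- mice, which carry the B6.129S-Tespa1tm1Smoc allele in the germ line on a C57BL/6 background, so that every cell of the host lacks an intact gene. The other groups were the same genotypes 9 days after 1 intraperitoneal injection of 150 mg/kg 5-fluorouracil (5-FU), a fluoropyrimidine that kills dividing marrow cells and is also built into RNA. The mice were males of 8 to 10 weeks, but the number of mice behind a library is not given in the sources used here, so p-values measure only the spread between these libraries, which may be technical.

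Ribosome biogenesis begins in the nucleolus, where RNA polymerase I copies the ribosomal DNA repeats into 1 long precursor. Box C/D snoRNPs guide methylation and box H/ACA snoRNPs guide pseudouridylation of this precursor, while the small-subunit processome and the large-subunit assembly factors cut it, fold it and load ribosomal proteins. The genes for these factors are classical transcriptional targets of MYC, and HSCs are known for a low rate of protein synthesis that rises in cycling progenitors.

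The 12 libraries held between 22118154 and 28275079 counts (median 23401715), and the lowest count of any of the 41 genes in any library was 158, for Wdr74. Tespa1 itself stood at 49.8, 43.0 and 46.6 CPM (counts scaled to a common library size) in untreated Wild type, 34.5, 34.9 and 34.8 in untreated Tespa1-/-, 47.2, 55.0 and 57.5 in Wild type after 5-FU and 20.8, 19.8 and 17.3 in Tespa1-/- after 5-FU, so it was lower in the Tespa1-/- libraries of both treatments, with reads remaining. The 3 Tespa1-/- libraries after 5-FU stood apart from the other 9 in markers of other cells. Their summed neutrophil markers (10 genes) lay at 1058 to 1061 CPM against 0.770 to 8.42 elsewhere, their erythroid markers (8 genes) at 363 to 382 against 19.0 to 49.7, and their cycling genes (10 genes) at 3523 to 3586 against 2416 to 2551. A set of 6 stem and progenitor surface genes, Kit and Ly6a of the gate and Cd34, Flt3, Slamf1 and Cd48, which subdivide LSKs, had its lowest sum there, at 712 to 750.3 CPM, against 1138 to 1161 in Wild type after 5-FU, 1468 to 1535 in untreated Wild type and 1235 to 1272 in untreated Tespa1-/-. The sum followed mainly Flt3 (610.0 CPM on average in untreated Wild type, 314 after 5-FU) and Cd34 (397 and 267). Kit stood at 409 and 467 and Ly6a at 21.8 and 36.0 in the same Wild type groups. In Tespa1-/- LSKs, untreated and after 5-FU, Flt3 averaged 493 and 169.5 CPM and Cd34 329 and 156. Kit averaged 360 and 342 there and Ly6a 20.8 and 15.3. In bulk RNA, fewer cells of a type and less RNA per cell cannot be told apart.

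Of the 41 genes, 7 carry snoRNA genes inside their introns: Ncl, Nop56, Nop58, Dkc1, Wdr43, Ppan and Gnl3. Among the protein-coding genes tested, 222 of 13476 (1.65%) do so, against 17.1% here. Together the 7 hosts hold 21 annotated snoRNAs of 68 to 133 bases, all of them in introns, and 11 of these have both the letters TGATGA (the C box) in their first 25 bases and CTGA (the D box) in their last 20. These 5 are shown, 1 for each of the 5 hosts that were lower after 5-FU in Wild type LSKs, because the host transcript is where the guide RNA is cut from. They are given 5′ to 3′ from the GENCODE M21 transcripts, with the C and D boxes in capitals, and the coordinates are on GRCm38.
Snord82, Ncl intron 5, chr1:86356261-86356330, minus strand: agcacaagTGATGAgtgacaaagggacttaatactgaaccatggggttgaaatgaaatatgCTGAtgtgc
Snord110, Nop56 intron 3, chr2:130275506-130275573, plus strand: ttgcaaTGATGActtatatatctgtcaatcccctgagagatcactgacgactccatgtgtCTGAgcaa
Snord11, Nop58 intron 9, chr1:59704790-59704873, plus strand: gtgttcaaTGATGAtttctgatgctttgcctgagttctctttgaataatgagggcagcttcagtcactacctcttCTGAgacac
Snord92, Wdr43 intron 4, chr17:71631281-71631365, plus strand: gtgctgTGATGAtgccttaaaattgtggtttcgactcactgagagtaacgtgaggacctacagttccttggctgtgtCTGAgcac
Gm24067, Ppan intron 3, chr9:20889484-20889568, plus strand: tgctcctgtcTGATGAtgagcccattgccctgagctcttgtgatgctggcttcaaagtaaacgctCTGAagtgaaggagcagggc
The libraries were made from poly-A RNA, so the snoRNAs themselves were not compared, and the values below are those of the host transcripts.

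Promoter windows of 300 bases (250 before to 50 after the start site, RefSeq, GRCm38.p6) were held for 35 of the 41 genes. The E-box CACGTG, the letters that MYC-MAX dimers bind, was present in 4 of the 35 (11.4%), namely Nop2, Utp20, Pes1 and Wdr43, against 11.3% of all tested genes with a window, so the share in these genes was near that background. Of the 104 genes of a longer ribosome biogenesis list that had a window, 20 (19.2%) held the E-box. In Wdr43, the 1 of the 4 that passed the adjusted test as lower after 5-FU in both genotypes, the E-box starts 17 bases after the first transcribed base.
Wdr43 E-box (capitals) with its flanks, GRCm38.p6, chr17:71616220-71616249, plus strand: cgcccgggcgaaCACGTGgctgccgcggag
CGCATGCG, the core of an NRF1 site, was found in 1 of the 35 genes (Ubtf, 2.86% against 4.04% of tested genes and 7.69% of the longer list), and CTCGCGAG in 0 of 35 (against 2.03% and 3.85%).

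By deposited FPKM, which is per transcript length, the mean level over the 12 libraries fell from 228 for Ncl (nucleolin) and 151 for Npm1 (nucleophosmin) through 87.3 for Ddx21, 86.2 for Noc2l and 72.3 for Wdr43 to 5.32 for Mrto4, 5.20 for Rrp1b and 4.42 for Wdr12. Of the 40 pairs of neighbours in this order, 3 had ranges over the 12 libraries that did not overlap, those below Ncl, Npm1 and Wdr43. The order depends on the length used: the length implied by the deposited FPKM exceeded the longest coding transcript for 34 of the 41 genes and the whole gene for 4, among them Nop56. With CPM per kilobase of the longest coding transcript, a choice made after seeing the data, Npm1 stood first at 371, Ncl second at 338 and Fbl rose from rank 11 to rank 3 at 136, while Nop56 rose from rank 29 to rank 6 at 96.0. In this order 2 of the 40 pairs of neighbours had ranges that did not overlap. The ranges of Npm1 (338 to 416) and Ncl (304 to 368) overlapped.

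The summed level of the 41 genes was highest in untreated Wild type LSKs and lowest in Wild type LSKs after 5-FU. It was 8668, 8640.5 and 8517 CPM in the untreated Wild type libraries, 8327, 8209 and 8204 in untreated Tespa1-/-, 7367, 7474 and 7501 in Wild type after 5-FU and 8123, 8001 and 8067 in Tespa1-/- after 5-FU. The 3 libraries of each group were separate from those of every other group. Wild type LSKs went from 8608 ± 80.5 to 7447 ± 71.1 CPM (mean ± SD, n = 3), 13.5% lower, and Tespa1-/- LSKs from 8247 ± 69.9 to 8064 ± 61.2, 2.22% lower. Tespa1-/- was 4.20% below Wild type when untreated and 8.28% above it after 5-FU. Ncl alone supplied 33.1% to 35.4% of the sum, which weights genes by their counts and not per length, and without Ncl the 4 differences were -12.8%, -4.29%, -2.49% and 7.01% in the same order.

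**Figure D1:**
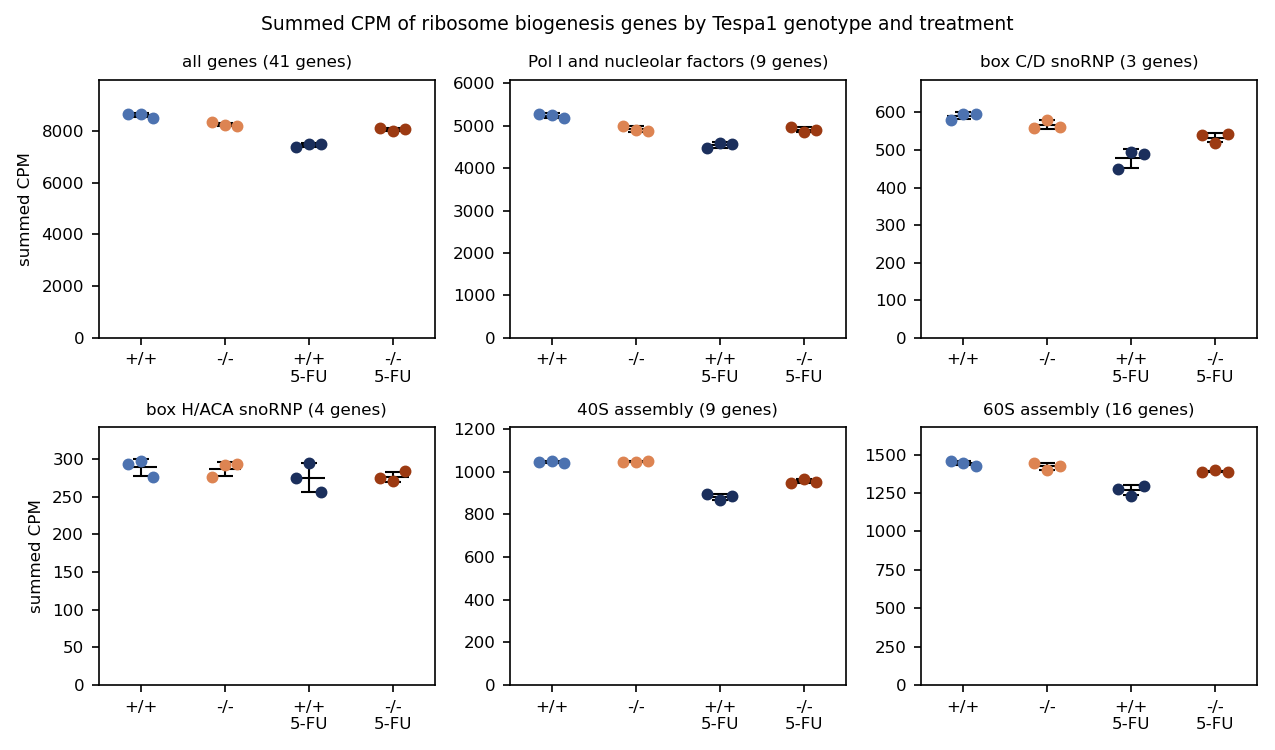
Summed CPM of all 41 genes and of each of the 5 roles (vertical axes, CPM) in the 4 groups (horizontal axes; +/+ is Wild type, and 40S and 60S mark the small and large subunit); points are libraries and bars are the mean ± SD of 3 libraries. For all genes, the Wild type libraries after 5-FU lie at 7367 to 7501 CPM, below the other 9 libraries, and the untreated Wild type libraries at 8517 to 8668 lie above them.

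By role, the box C/D snoRNP genes lost the largest share of their summed level in Wild type LSKs after 5-FU, 19.2%, followed by the small-subunit factors with 15.7%, the polymerase I and nucleolar genes with 13.2% and the large-subunit factors with 12.3%. Ncl supplied 2976 of the 5236 CPM of the polymerase I and nucleolar genes untreated and 2535 of 4544 after 5-FU. The place of that role in the order therefore rests largely on Ncl. The 3 box C/D genes summed to 581, 597 and 596 CPM in untreated Wild type and 449, 495 and 489 after 5-FU. In Tespa1-/- LSKs after 5-FU they summed to 538, 519 and 542 CPM, 11.6% above Wild type after 5-FU. The small-subunit factors were 8.31% and the large-subunit factors 9.64% above Wild type after 5-FU, and each of these sets was separate from the Wild type libraries. The summed level of the box H/ACA genes overlapped between groups in each of the 4 pairwise comparisons.

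**Figure D2:**
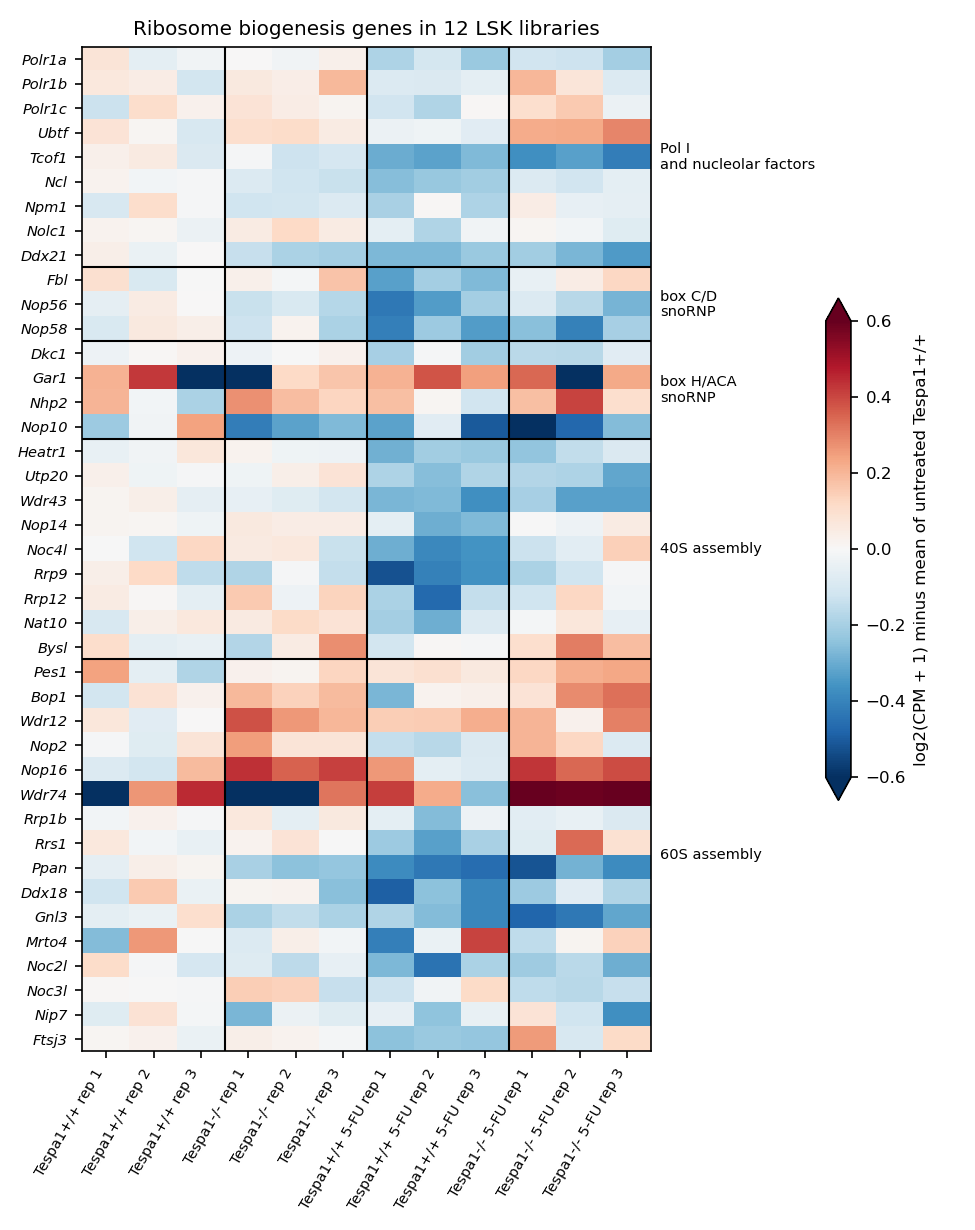
Level of each of the 41 genes (vertical axis, grouped by role) in each of the 12 libraries (horizontal axis), as log2(CPM + 1) minus the mean of the untreated Wild type libraries, with colours ending at ±0.6. Most genes are below the untreated Wild type level in the 3 Wild type libraries after 5-FU, and Wdr74 and Gar1 vary most between libraries of the same group.

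The first comparison asked what 5-FU did in Wild type LSKs. Of the 41 genes, 10 (24.4%) were lower by edgeR's quasi-likelihood test at a Benjamini-Hochberg adjusted p below 0.05 (background 4.18% of all 17002 genes tested, and 8.15% of the 7115 within the range of mean CPM of the 41). None was higher (background 3.77%, 5.14% in the CPM range). At an unadjusted p below 0.05 edgeR gave 21 lower (background 10.8%, 18.8% in the CPM range) and 0 higher (background 10.6%, 11.8% in the CPM range), and at an adjusted p below 0.05 DESeq2 gave 15 lower (background 6.23%) and 0 higher (background 5.90%). The 10 were Ncl, Tcof1 and Ddx21 among the nucleolar genes, Nop56 and Nop58 of the box C/D proteins, Heatr1 and Wdr43 of the small-subunit processome, and Ppan, Noc2l and Ftsj3 of the large-subunit factors. The median log2 fold change of the 41 was -0.19 (all genes tested 0.014, genes of the same CPM range -0.040), and 34 of the 41 estimates were negative. The libraries of the 2 groups did not overlap for 22 genes (53.7%) that were lower after 5-FU (background 14.5%, and 22.7% in the CPM range) and for 1 that was higher, Wdr12 (background 14.0%, 13.8% in the CPM range). In the same comparison 5 of the 5 B cell markers tested and 3 of the 4 megakaryocyte markers tested were higher after 5-FU, with sums of 30.4 to 36.5 and 32.4 to 37.2 CPM untreated and 98.7 to 106 and 108 to 123 after 5-FU. Of the other markers, 1 of 5 neutrophil and 2 of 6 erythroid genes tested were higher and 1 of 10 cycling genes was lower, and of the genes that subdivide LSKs Slamf1 was higher (1.73) and Flt3 (-0.96) and Cd34 (-0.57, log2) were lower. The gate genes Kit (0.19 ± 0.051, adjusted p = 0.051, libraries apart) and Ly6a (0.72 ± 0.27, adjusted p = 0.148, overlapping, edgeR) had positive estimates that missed the threshold. Of the lineage genes of the negative gate, 1 of 4 was higher. The part of these markers in the values of the 41 genes was not tested.

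Ncl, the abundant RNA-binding protein of the nucleolus, stood at 3020.5, 2944 and 2964 CPM in untreated Wild type and 2496, 2539 and 2571 after 5-FU. Every treated library was below every untreated one, and the fitted log2 fold change was -0.23 ± 0.023 (SE), a fall of 14.7% (adjusted p = 0.000397). Tcof1, which encodes treacle, a cofactor of polymerase I, went from 354, 361 and 327 to 282, 278 and 288 CPM without overlap, by -0.29 ± 0.054 on the log2 scale (adjusted p = 0.011, edgeR). Ddx21, a nucleolar RNA helicase, went from 566, 538 and 553 to 458, 458 and 474 CPM, again without overlap (-0.25 ± 0.043, adjusted p = 0.00722, edgeR). Polr1a, the largest polymerase I subunit, was at 188, 171 and 175 CPM untreated and 156, 165 and 152 after 5-FU. Its groups did not overlap, but the test was not passed (-0.17 ± 0.065, adjusted p = 0.162, edgeR). For Npm1, the nucleolar histone and ribosome chaperone, 591, 679 and 628 CPM untreated and 552, 635 and 556 after 5-FU overlapped, and the 95% interval of the log2 fold change was -0.28 to 0.033. Ubtf, the factor that keeps ribosomal DNA open, overlapped as well, with 238, 227 and 210.3 CPM untreated and 219.5, 221 and 214 after 5-FU. Polr1b, Polr1c and Nolc1 had estimates of -0.078, -0.099 and -0.085 and did not pass the test.

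The box C/D proteins Nop56 and Nop58, paired scaffold proteins of the snoRNP, moved by nearly the same amount. Nop56 stood at 193, 207 and 201 CPM untreated and 148, 159 and 174 after 5-FU. Nop58 stood at 209, 233 and 229 CPM untreated and 168, 192 and 177 after 5-FU. Neither gene overlapped between the groups, and the log2 fold changes were -0.32 ± 0.072 for Nop56 (adjusted p = 0.0265) and -0.32 ± 0.071 for Nop58 (adjusted p = 0.0251, both edgeR). Fbl, the methyltransferase of the same particle, was at 178, 157 and 167 CPM untreated and 133, 145 and 139 after 5-FU, separate but not past the adjusted threshold (-0.27 ± 0.070, adjusted p = 0.051, edgeR). Of the box H/ACA genes, Dkc1, the pseudouridine synthase, was at 142, 146 and 148 CPM untreated and 126, 144 and 126 after 5-FU, which overlapped, and 0 of the 4 passed the test, with estimates from -0.31 for Nop10 to 0.22 for Gar1.

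Among the small-subunit factors all 9 estimates were negative and 2 passed the test. Heatr1, a processome protein, stood at 188, 191 and 203 CPM untreated and 159, 168 and 166 after 5-FU (-0.24 ± 0.060, adjusted p = 0.0435, edgeR). Wdr43, a processome protein of the same early complex, went from a mean of 279 to 226 CPM (-0.30 ± 0.056, adjusted p = 0.0115, edgeR). Neither gene overlapped between the groups. Utp20, a large HEAT-repeat protein of the processome, was at 175, 168 and 170.1 CPM untreated and 150.4, 143 and 151 after 5-FU, separate but with an adjusted p of 0.0679 (edgeR). The lowest estimate of the 41 was that of Rrp9, a protein of the snoRNP that docks on the processome, at -0.45, which did not pass the test (adjusted p = 0.0688, edgeR).

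Of the 16 large-subunit factors, 3 passed the test. Ppan, a Brix-domain assembly factor, stood at 111, 118 and 116 CPM untreated and 88.0, 85.0 and 83.3 after 5-FU, the largest fall among the 10 (-0.43 ± 0.070, 25.5% lower, adjusted p = 0.00648, edgeR). Ftsj3, a methyltransferase of large-subunit precursors, was at 153, 154 and 147 CPM untreated and 127, 129 and 129 after 5-FU (-0.23 ± 0.059, adjusted p = 0.0438, edgeR). Noc2l went from a mean of 362 to 294 CPM (-0.30 ± 0.077, adjusted p = 0.0476, edgeR), and none of the 3 overlapped. Gnl3, the GTPase nucleostemin, was at 154, 156 and 172 CPM untreated and 142, 134 and 122 after 5-FU, separate, with an adjusted p of 0.0646 (edgeR). Pes1, of the PeBoW complex, overlapped at 109.6, 88.7 and 81.4 CPM untreated and 97.6, 98.9 and 96.4 after 5-FU, and its partners Bop1 and Wdr12 had estimates of -0.069 and 0.18. Wdr74 overlapped widely, with 11.6, 23.9 and 27.2 CPM untreated and 26.6, 23.1 and 16.4 after 5-FU.

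Of the 7 snoRNA hosts, 5 were lower in Wild type LSKs after 5-FU (Ncl, Nop56, Nop58, Wdr43 and Ppan), beside 5 of the 34 genes without a nested snoRNA. The share over all genes tested was 4.18%, and 8.15% in the CPM range, while the share over other snoRNA hosts was not computed. The median log2 fold change was -0.30 over the hosts and -0.13 over the others, and their median FPKM was 13.9 and 17.4. The length implied by the FPKM exceeded the whole gene for the hosts Nop56, Gnl3 and Ppan. These medians therefore do not show how well the 2 sets were measured. When each of the 6 libraries was left out in turn, 5 to 7 of the 41 genes were lower and 0 higher, with 7 without Wild type replicate 1, 6 without Wild type replicate 3 and 5 without any of the other 4, and Ncl, Ddx21 and Ppan passed in each. Tcof1 missed the threshold without treated Wild type replicate 2 (adjusted p = 0.0565), Wdr43 without treated replicate 3 (0.0521), Nop56, Nop58 and Noc2l in 4, 4 and 5 of the 6 fits (highest adjusted p 0.0976, 0.102 and 0.146), and Heatr1 and Ftsj3 in all 6 (highest 0.142 and 0.138).

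**Figure D3:**
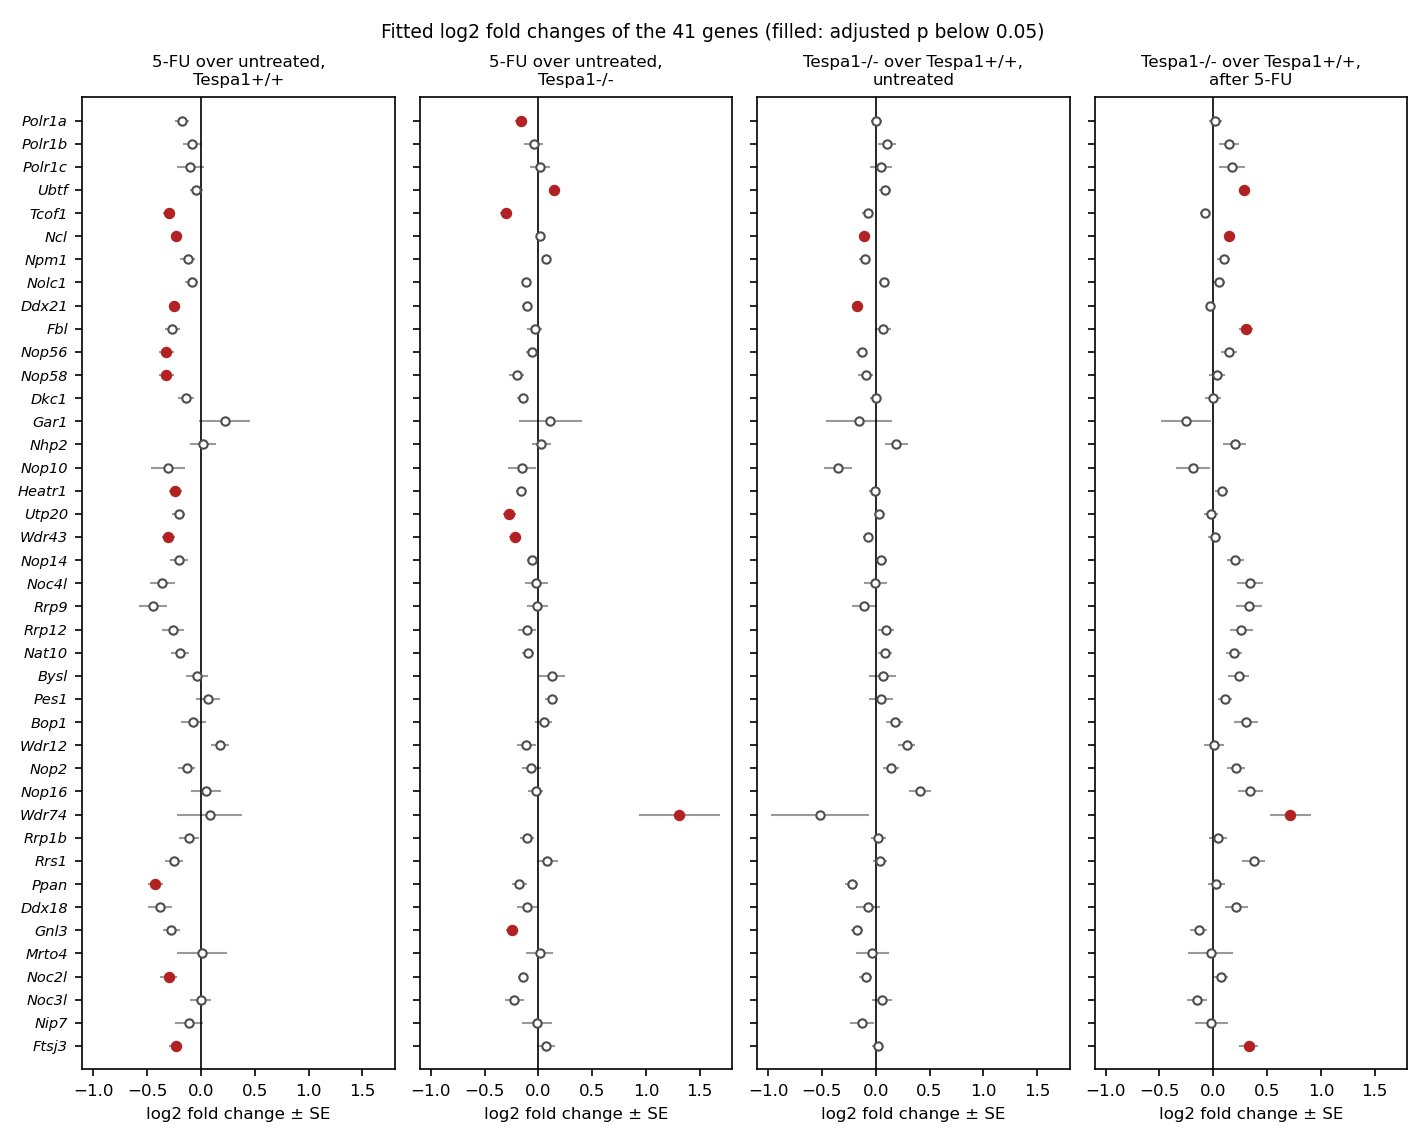
Fitted log2 fold change ± SE of the 41 genes (vertical axis, grouped by role) in the 4 pairwise comparisons (panels, horizontal axes in log2 units); filled points have an edgeR adjusted p below 0.05. In the panel of 5-FU in Wild type 34 of 41 points lie left of 0 and 10 are filled, and in the panel of Tespa1-/- against Wild type after 5-FU 31 of 41 lie right of 0 and 5 are filled.

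In Tespa1-/- LSKs the same treatment was followed by changes in both directions. Of the 41 genes, 5 were lower (Polr1a, Tcof1, Utp20, Wdr43 and Gnl3, background 8.64% of 17228 genes) and 2 higher (Ubtf and Wdr74, background 10.7%), with a median log2 fold change of -0.057 (all genes -0.0094). The shares called, 12.2% lower and 4.88% higher, were near or below those of genes in the same CPM range, 13.8% and 14.8%. The libraries did not overlap for 12 lower genes (background 18.1%, 22.1% in the CPM range) and 3 higher ones (Ubtf, Npm1 and Wdr74, background 20.4%, 26.1% in the CPM range). At an unadjusted p below 0.05 edgeR gave 13 lower (background 15.4%, 21.5% in the CPM range) and 2 higher (background 17.0%, 22.6% in the CPM range), and at an adjusted p below 0.05 DESeq2 gave 6 lower (background 10.3%) and 1 higher (background 12.2%). Tcof1 and Wdr43 were the genes that passed in both genotypes. In the same comparison 10 of 10 neutrophil, 8 of 8 erythroid and 8 of 10 cycling markers were higher after 5-FU, and the summed B cell and megakaryocyte markers were also higher. Between the untreated groups 4 of these neutrophil and 7 of these erythroid markers passed the filter on low counts. The others passed it here through the treated libraries, so the filter fixed their direction and they add no support. B cell markers summed to 23.0 to 26.4 CPM untreated and 121 to 132 after 5-FU, and megakaryocyte markers to 61.1 to 63.5 and 164 to 170.0. Of the stem and progenitor surface genes Flt3 (-1.55), Cd34 (-1.08) and Cd48 (-0.38) were lower and Slamf1 (2.25) higher. Kit (-0.086) and Ly6a (-0.46, log2) did not pass the test. Of the lineage genes of the negative gate, 5 of 6 were higher. Among the 6, Cd3e (0 CPM untreated, 0.63 to 1.39 after 5-FU) and Ly6g (0 and 0.58 to 1.58) lay near the floor. Both passed the filter on low counts only through the treated libraries. The part of these markers in the values of the 41 genes was not tested.

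Tcof1 stood at 345, 319 and 323 CPM in untreated Tespa1-/- and 268, 277 and 260.4 after 5-FU, the largest fall of the 5 (-0.30 ± 0.048, adjusted p = 0.00275, edgeR). Utp20 stood at 168, 175 and 181 CPM untreated and 151, 150.2 and 137 after 5-FU (-0.27 ± 0.056, adjusted p = 0.0106, edgeR). Gnl3 stood at 141, 145 and 141 CPM untreated and 115, 119 and 129 after 5-FU (-0.24 ± 0.059, adjusted p = 0.019, edgeR). In each of these 3 genes every treated library was below every untreated one. The same held for Wdr43, with means of 265 and 229 CPM (-0.22 ± 0.051), and for Polr1a at 179, 175 and 182 CPM untreated and 164, 163 and 155 after 5-FU (-0.16 ± 0.048, adjusted p = 0.0437, edgeR). Ubtf went the other way, from 241, 243 and 233 to 263, 263 and 276 CPM without overlap (0.15 ± 0.045, adjusted p = 0.0474, edgeR). Wdr74, a nucleolar WD-repeat protein of the large-subunit pathway, was at 11.7, 7.01 and 24.8 CPM untreated and 38.4, 30.1 and 40.3 after 5-FU (1.31 ± 0.38, adjusted p = 0.0404, edgeR). Its untreated libraries were widely spread, though all of them lay below the treated ones.

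Ncl, Ddx21, Fbl, Nop56, Nop58, Heatr1 and Ppan did not pass the test in Tespa1-/- LSKs. Ncl was at 2812, 2736 and 2716 CPM untreated and 2814, 2752 and 2857 after 5-FU, which overlapped, and the 95% interval of its log2 fold change was -0.037 to 0.066. Ddx21 stood at 502, 484 and 479 CPM untreated and 477, 456 and 436 after 5-FU (log2 -0.11, adjusted p = 0.119, edgeR). Nop56 stood at 183, 188 and 178 CPM untreated and 189, 178 and 165 after 5-FU, and Nop58 at 205, 227 and 196 CPM untreated and 188, 168 and 194 after 5-FU. Their intervals were -0.19 to 0.079 and -0.37 to -0.035. Fbl stood at 171, 166 and 188 CPM untreated and 162, 172 and 182 after 5-FU, Heatr1 at 197, 191 and 190.0 CPM untreated and 165, 175 and 183 after 5-FU, and Ppan at 100.1, 96.7 and 97.6 CPM untreated and 80.0, 94.3 and 88.2 after 5-FU, with intervals of -0.19 to 0.12, -0.28 to -0.033 and -0.34 to -0.017. Npm1 stood at 582, 586 and 597 CPM untreated and 651, 610.0 and 609 after 5-FU, separate but not past the test (adjusted p = 0.225, edgeR). Dkc1 at 142, 145 and 148 CPM untreated and 129.6, 129 and 138 after 5-FU was separate and lower, and Pes1 at 94.3, 93.4 and 101 CPM untreated and 101, 108 and 109 after 5-FU and Ftsj3 at 155, 153 and 149.8 CPM untreated and 181, 141 and 164 after 5-FU overlapped.

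Over the 6 fits that each left out 1 library, 2 to 5 genes were lower and 0 to 1 higher. The count of lower genes was 2 without untreated replicate 1 or 2 and 3 without treated replicate 1 or 2, the count of higher genes was 1 without untreated replicate 3 and 0 otherwise, and Tcof1 and Utp20 passed in each of the 6 (Wdr43 missed it in 2, Gnl3 and Wdr74 in 5, Polr1a and Ubtf in 6, with highest adjusted p of 0.0675, 0.0739, 0.134, 0.131 and 0.153).

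The untreated LSKs of both genotypes were compared to see what loss of Tespa1 did without stress. Of the 41 genes, 2 were lower, Ncl and Ddx21 (background 3.59% of 17055 genes, 7.03% in the CPM range), and 0 higher (background 1.64%, 2.50% in the CPM range). At an unadjusted p below 0.05 edgeR gave 6 lower (background 10.5%, 17.8% in the CPM range) and 2 higher (background 7.97%, 9.22% in the CPM range), and at an adjusted p below 0.05 DESeq2 gave 2 lower (background 5.27%) and 2 higher (background 3.10%). Ncl was not among the genes called by DESeq2. The median log2 difference was 0.0057 (all genes 0.0071). The libraries did not overlap for 6 lower genes (background 13.4%, 21.2% in the CPM range) and 5 higher ones (background 12.3%, 12.1% in the CPM range), shares near or below those backgrounds. In the same comparison the summed neutrophil markers were 0.770 to 1.60 CPM in Wild type and 4.70 to 5.85 in Tespa1-/-, the erythroid markers 19.0 to 26.3 and 39.7 to 49.4, and the megakaryocyte markers 32.4 to 37.2 and 61.1 to 63.5, all higher in Tespa1-/- without overlap, while the B cell markers were lower, at 30.4 to 36.5 and 23.0 to 26.4. Single markers that passed the test were Itga2b (0.81) and Car1 (0.98), which were higher, and Flt3 (-0.30), Cd34 (-0.27) and Cd79a (-1.24, log2), which were lower. Kit (-0.18, adjusted p = 0.0782, edgeR) was separate but missed the threshold. The part of these markers in the Ncl and Ddx21 values was not tested.

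Ncl was at 3020.5, 2944 and 2964 CPM in Wild type and 2812, 2736 and 2716 in Tespa1-/-, without overlap (-0.11 ± 0.021, 7.28% lower, adjusted p = 0.0246, edgeR). Ddx21 was at 566, 538 and 553 CPM in Wild type and 502, 484 and 479 in Tespa1-/-, also without overlap (-0.18 ± 0.039, 11.5% lower, adjusted p = 0.0394, edgeR). Neither call held in every alternative fit. Ncl missed the threshold with DESeq2, and Ddx21 missed it with library totals, with no filter and with the replicate block. With 1 library left out, Ddx21 missed the threshold in all 6 fits (highest adjusted p 0.165) and Ncl in 4, those without Wild type replicate 2 or any 1 of the Tespa1-/- libraries (highest 0.121). Of the remaining genes, Nop16 had the highest estimate, 0.41, and Wdr74 the lowest, -0.52, and neither passed the test (adjusted p = 0.0627 and 0.618, edgeR).

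The comparison of the genotypes after 5-FU gave calls in 1 direction. Of the 41 genes, 5 (12.2%) were higher (Ncl, Ubtf, Fbl, Wdr74 and Ftsj3, background 7.34% of 17239 genes, 11.6% in the CPM range) and 0 lower (background 5.78%, 10.1% in the CPM range), so the share that was higher was near that of genes at like levels. At an unadjusted p below 0.05 edgeR gave 15 higher (background 14.2%, 21.5% in the CPM range) and 0 lower (background 12.6%), and at an adjusted p below 0.05 DESeq2 gave 6 higher (background 9.44%) and 0 lower (background 7.88%). The median log2 difference was 0.11 (all genes -0.0097, CPM range 0.018), with 31 of 41 estimates positive. The libraries did not overlap for 17 higher genes (41.5%, background 17.5%, 24.0% in the CPM range) and 2 lower ones, Tcof1 and Noc3l (background 15.5%, 19.8% in the CPM range).

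Ubtf stood at 219.5, 221 and 214 CPM in Wild type after 5-FU and 263, 263 and 276 in Tespa1-/- (0.29 ± 0.050, 22.1% higher, adjusted p = 0.00494, edgeR). Ncl stood at 2496, 2539 and 2571 CPM in Wild type and 2814, 2752 and 2857 in Tespa1-/- (0.14 ± 0.023, 10.4% higher, adjusted p = 0.00332, edgeR). Fbl stood at 133, 145 and 139 CPM in Wild type and 162, 172 and 182 in Tespa1-/- (0.31 ± 0.066, 23.7% higher, adjusted p = 0.0151, edgeR). In each of the 3 genes every Tespa1-/- library was above every Wild type library. Ftsj3 stood at 127, 129 and 129 CPM in Wild type and 181, 141 and 164 in Tespa1-/- (0.33 ± 0.087, adjusted p = 0.0349, edgeR) and Wdr74 at 26.6, 23.1 and 16.4 CPM in Wild type and 38.4, 30.1 and 40.3 in Tespa1-/- (0.71 ± 0.19, 64.0% higher, adjusted p = 0.0378, edgeR), both without overlap. The treated groups overlapped for Nop56 (0.14 ± 0.076), Nop58 (0.034 ± 0.075), Ppan (0.030 ± 0.079), Polr1a (0.020 ± 0.060) and Utp20 (-0.022 ± 0.062), and these 5 had 95% intervals that included 0. The small-subunit factors had 8 of 9 positive estimates and a median of 0.21, with 0 past the test.

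These 5 calls sit in the libraries whose marker levels differed. Of the markers, 10 of 10 neutrophil, 8 of 8 erythroid and 9 of 10 cycling genes were higher in Tespa1-/- than in Wild type after 5-FU, while Kit (-0.45), Cd34 (-0.78), Flt3 (-0.89) and Ly6a (-1.24, log2) were lower. Between untreated and treated Wild type, 5 of the neutrophil and 6 of the erythroid genes passed the filter on low counts. The others passed it here through the Tespa1-/- libraries, so the filter fixed their direction and they add no support. The summed megakaryocyte markers were 108 to 123 CPM in Wild type and 164 to 170.0 in Tespa1-/- (46.4% higher, 1 of 5 genes past the test), without overlap. The B cell markers were 98.7 to 106 and 121 to 132 (21.7% higher, 2 of 6), again without overlap. Of the lineage genes, 4 of 6 were higher, and Cd3e and Ly6g again lay near the floor. The part of these markers in the differences of the 41 genes was not tested. With 1 library left out, 2 to 5 genes were higher, 2 without Wild type replicate 3 or Tespa1-/- replicate 3 and 3 without Wild type replicate 2, and Ubtf and Ncl passed in each of the 6 fits, while Fbl missed in 3, Wdr74 in 4 and Ftsj3 in 5 (highest adjusted p 0.0588, 0.120 and 0.105).

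**Figure D4:**
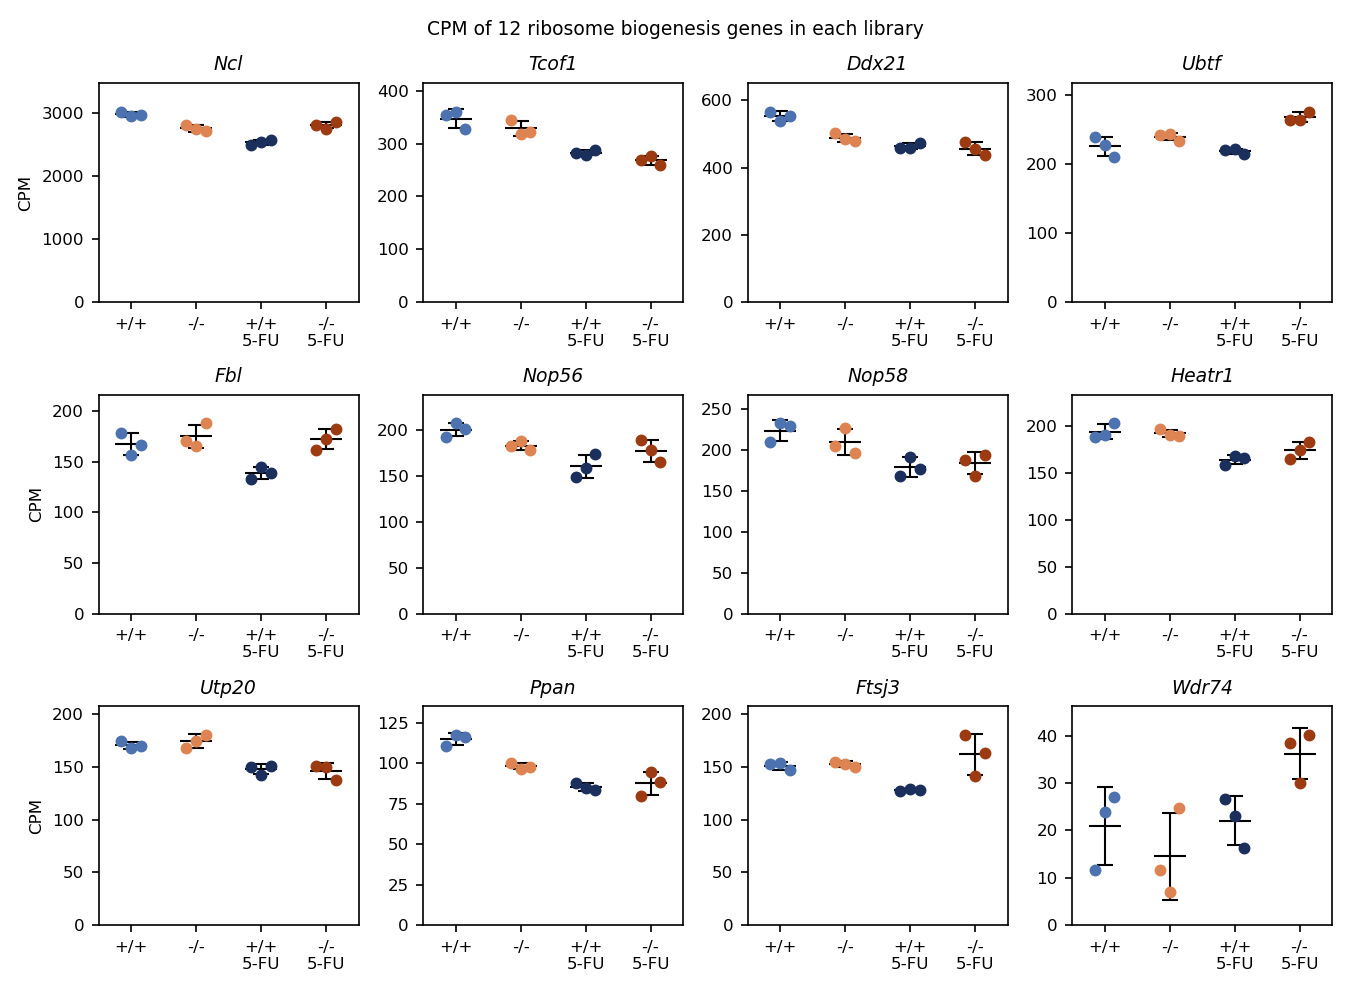
CPM (vertical axes) of 12 of the genes in the 4 groups (horizontal axes); points are libraries and bars the mean ± SD of 3 libraries. The Ncl, Fbl and Ftsj3 libraries of Wild type after 5-FU lie below those of the other groups, the Tcof1 and Utp20 libraries after 5-FU lie below the untreated ones in both genotypes, and the Wdr74 libraries are widely spread within groups.

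The response to 5-FU itself was then compared between the genotypes by the interaction term over all 12 libraries, in which a positive value means a higher response in Tespa1-/- than in Wild type. Of the 41 genes, 1 passed, Ncl, with a positive value (background 3.02% of 18696 genes), and 0 with a negative one (background 1.99%). At an unadjusted p below 0.05 edgeR gave 12 positive (background 9.79%) and 1 negative (background 8.90%), and at an adjusted p below 0.05 DESeq2 gave 1 positive (background 4.65%) and 0 negative (background 3.56%). Ncl changed by -0.23 in Wild type and 0.015 in Tespa1-/- on the log2 scale, a difference of 0.26 ± 0.030 (adjusted p = 0.000282, edgeR), which passed with each of the 12 libraries left out and in the 6 other alternatives fitted, at 0.21 to 0.27. The estimates were positive for 35 of the 41 genes, with a median of 0.13 (all genes -0.021). Genes called in Wild type after 5-FU and not in Tespa1-/- did not, apart from Ncl, pass this test, among them Nop56 (0.28 ± 0.095, adjusted p = 0.12), Ppan (0.26 ± 0.095, 0.148) and Ftsj3 (0.32 ± 0.10, 0.108, edgeR). The interaction also passed, in the positive direction, for 5 of 10 neutrophil, 5 of 8 erythroid, 6 of 10 cycling and 2 of 6 B cell markers and 1 of 6 lineage genes. It passed in the negative direction for Kit (-0.27), Cd34 (-0.50) and Flt3 (-0.59, log2). Markers near 0 in the other groups passed the filter on low counts only through the treated Tespa1-/- libraries. The part of those cells in the Ncl value was not tested. Tcof1 had an interaction estimate of 0.0018 with a 95% interval of -0.15 to 0.15.

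A longer list of other ribosome biogenesis genes (121 found of 122 listed) was read from the same fits. After 5-FU in Wild type 0 of the 121 were higher and 6 (4.96%, all genes 4.18%) lower, led by Nol10 (-0.64) and Utp18 (-0.49), both small-subunit factors, with a median of -0.066. In Tespa1-/- after 5-FU 4 (3.31%, all genes 10.7%) were higher, led by Lsg1 (0.31), a GTPase of late large-subunit maturation, and Baz2a (0.30), of the nucleolar remodelling complex, and 4 (all genes 8.64%) lower, led by Taf1d (-0.64), a polymerase I promoter factor, and Mdn1 (-0.40), a large ATPase. In untreated LSKs 0 were higher and 4 (3.31%, all genes 3.59%) lower in Tespa1-/-, led by Nol10 (-0.60) and the kinase Riok1 (-0.41). After 5-FU 8 (6.61%, all genes 7.34%) were higher in Tespa1-/-, led by Ebna1bp2 (0.40) and Pelp1 (0.39), and 2 (1.65%, all genes 5.78%) lower, Taf1d (-0.41) and Nsa2 (-0.36). The interaction passed with a positive value for 2 (1.65%, all genes 3.02%), Utp18 (0.57) and Ebna1bp2 (0.58).

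Of the MYC network, Myc RNA stood at 131, 133 and 164 CPM in untreated Wild type, 185, 209 and 184 in untreated Tespa1-/-, 129, 163 and 127 in Wild type after 5-FU and 129, 136 and 152 in Tespa1-/- after 5-FU. It was higher in untreated Tespa1-/- than in Wild type (0.44 ± 0.095, adjusted p = 0.0363) and lower after 5-FU in Tespa1-/- (-0.49 ± 0.077, adjusted p = 0.00275, edgeR), while in Wild type after 5-FU (-0.026 ± 0.12) and between the genotypes after 5-FU (-0.015 ± 0.11) it did not pass. Myc RNA and the summed level of the 41 genes were not in the same order over the groups: the untreated Tespa1-/- group had the highest Myc values and a lower sum than untreated Wild type. The libraries hold no value for MYC protein, so this order does not show how active MYC was. In Wild type after 5-FU the Myc paralog Mycn rose from a mean of 19.7 to 44.0 CPM (1.16 ± 0.27, adjusted p = 0.0299, edgeR) and Mnt, a MAX partner that opposes MYC, fell (-0.40). Mnt was also lower in untreated Tespa1-/- than in Wild type (-0.57). Mxd1, another such partner, was lower in untreated Tespa1-/- (-0.58), higher after 5-FU in Tespa1-/- (0.58) and higher in Tespa1-/- than in Wild type after 5-FU (0.42). After 5-FU in Tespa1-/- Mxi1 was higher (0.38) and Mga lower (-0.33). The interaction passed for Mxd1 (0.99) and Mnt (0.41), and the other members of the 12-gene network list did not pass any of the 5 tests.

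The genes also varied among themselves. Across the 12 libraries the Pearson correlation of a gene's log2 CPM with the mean of the other 40 had a median of 0.554 and ran from -0.361 for Gar1 to 0.884 for Rrp9, and it was over 0.5 for 24 genes. With the group means removed the median was -0.113 and the highest value 0.338. These are descriptions over 12 points that share library depth and scaling. The SD within groups had a median of 0.094 on the log2 scale, was smallest for Ncl at 0.024 and was largest for Wdr74 at 0.566. Over the 4 pairwise comparisons 16 of the 41 genes passed the test at least 1 time, 7 passed it at least 2 times, and 25 passed in none, among them Npm1, Dkc1, Pes1, Bop1 and the polymerase I subunits Polr1b and Polr1c. The matching shares over all genes tested were not computed, so these counts do not set the 41 apart from other genes. For 15 of the 41 genes, among them Nop56, Heatr1, Wdr43, Noc2l, Gnl3 and Polr1a, an annotated gene on the opposite strand overlaps the transcript, and since the strand setting of the counting is not given in the sources used here, their values are uncertain by the reads of that partner.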

How the data were processed

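Poly-A RNA of sorted LSKs was sequenced as paired-end libraries from a stranded kit. According to the submitters' processing notes the authors used CASAVA 1.8, HISAT2, StringTie and edgeR with GRCm38, and the strand setting of the counting is not given in the sources used here. The authors deposited read counts per gene, which were tested as deposited, and FPKM, which were used here only for the order of levels between genes.

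Counts were fitted for each comparison with edgeR 4.0.16 (R 4.3.3; glmQLFit and glmQLFTest, filterByExpr with a minimum count of 10, TMM factors), on the 6 libraries of the groups compared or, for the interaction, on all 12. P-values were adjusted by Benjamini-Hochberg over all genes tested, and a gene was called at an adjusted p below 0.05. The SE of a log2 fold change was taken from its size and the F statistic, and its 95% interval from the t quantile at the gene's total degrees of freedom. CPM used TMM factors over the 12 libraries. The scripts were tested on simulated counts. Replicate numbers in the labels do not pair samples (12 pairs, correlation of deviations -0.057 to 0.025), and libraries of 1 group differed by more than sampling noise. Positions and snoRNAs came from GENCODE M21, and promoters from RefSeq GRCm38.p6.

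Values in every library are given for the first gene of each role with Npm1, for the 3 called genes with the largest rise and the 3 with the largest fall in each pairwise comparison, and for genes called in the interaction. The 41 genes, the longer list, the markers and this rule were chosen with earlier results of these data known. Alternatives were DESeq2 1.42.0, RLE size factors, library totals, other filters, all 12 libraries in 1 fit, a replicate block, fold thresholds, and leaving out each library.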

Additional observations from a re-analysis of the deposited data

Results flagged for a closer look

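The response of Ncl to 5-FU differed between the genotypes by the interaction test. The log2 fold change was -0.23 in Wild type and 0.015 in Tespa1-/- LSKs, a difference of 0.26 ± 0.030 (SE; adjusted p = 0.000282, edgeR's quasi-likelihood test over 12 libraries). All 3 treated Wild type libraries lay below the 3 untreated ones, while the Tespa1-/- libraries overlapped. Summed neutrophil markers were 1058 to 1061 CPM in the treated Tespa1-/- libraries and 0.770 to 8.42 in the other 9, and the part of those cells in the Ncl value was not tested.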

How the results depend on the processing

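No result changed its direction past a threshold under any alternative run, though the median over the 41 genes for untreated Tespa1-/- against Wild type crossed 0 (-0.016 to 0.020). In Wild type after 5-FU the count of lower genes (10) was 6 with library totals in place of TMM, 15 with DESeq2 or with all 12 libraries in 1 fit, 0 with a fold above 1.5 added to the adjusted or to the unadjusted p, and 5 to 7 with 1 library left out. In Tespa1-/- after 5-FU the count of higher genes (2) was 1 with DESeq2, with no filter, with all 12 libraries in 1 fit and with either fold threshold, and 0 to 1 with 1 library left out. The count of lower genes there (5) was 0 with either fold threshold and 2 to 5 with 1 library left out. In untreated LSKs the count of higher genes (0) was 2 with DESeq2, 1 with at least 10 counts in every library and 0 to 1 with 1 library left out, and the count of lower genes (2) was 1 with library totals or no filter, 0 with either fold threshold and 0 to 1 with 1 library left out. After 5-FU the count of higher genes (5) was 1 with either fold threshold and 2 to 5 with 1 library left out. For the interaction the count (1) was 0 with the adjusted p and fold threshold and 1 to 2 with 1 library left out.

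With the replicate block, 7 genes were lower in Wild type after 5-FU, 1 higher and 4 lower in Tespa1-/- after 5-FU, 1 lower in untreated Tespa1-/- against Wild type, 3 higher in Tespa1-/- against Wild type after 5-FU and 1 (Ncl) in the interaction. The numbers do not pair the samples: of 12 same-numbered pairs 0 had a correlation over 0.1, and in 2 of the 12 the first library correlated best with its own number among the 3 libraries of the other group. The log2 ratio of the summed level was -0.21 in Wild type after 5-FU (-0.16 with library totals, -0.15 with deposited FPKM), -0.032 in Tespa1-/- after 5-FU (-0.015 with FPKM, -0.063 without Ncl), -0.062 in untreated Tespa1-/- against Wild type (-0.040 with FPKM, -0.036 without Ncl) and 0.11 after 5-FU (0.082 with library totals, 0.093 with FPKM, 0.098 without Ncl, an alternative chosen after seeing the data). The cause of these shifts was not tested. With 3 libraries a group, the median SE was 0.0718 for the 20 genes of highest FPKM and 0.0942 for the 21 lowest in Wild type after 5-FU, which limits the size of change that could be called.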
